A study of Mus musculus with 14 samples.

Results

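Disease that had returned after treatment with a mutant IDH1 inhibitor was compared with disease that had received vehicle only, to describe which genes still differed in the leukemic progenitors. All genes in the count table were members. Of 52636 genes, 11994 had enough counts to be tested. In a model fitted to all 14 libraries, 22 of these differed between the 4 relapse libraries and the 5 vehicle libraries. A fit of these 9 libraries alone gave 7. The cells came from mice transplanted with I1DN cells, the name given to a mouse leukemia that carries mutant IDH1. The relapse group (n = 4) had been given AG120 for 28 days and was sampled once the disease had come back. The vehicle groups had been given the carrier alone for 5 days (n = 3) or 14 days (n = 2). Mice on AG120 for 5 days (n = 3) or 14 days (n = 2) completed the 14 libraries and served here for values set side by side. In every group the sorted cells carried the surface protein cKit and lacked CD11b, and 1 library was made from the cells of 1 mouse. The time of relapse relative to the 28 days of treatment is not given in the sources used here, so drug exposure, time and regrowth cannot be told apart in the relapse group. The cells were sorted from bulk tissue of a transplant model, and in a bulk library fewer cells of a type and less RNA per cell cannot be told apart.

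Isocitrate dehydrogenase 1 normally converts isocitrate to 2-oxoglutarate, and its leukemia-associated mutant makes 2-hydroxyglutarate instead, which inhibits dioxygenases that need 2-oxoglutarate, among them the TET enzymes and histone demethylases. AG120, also called ivosidenib, inhibits the mutant enzyme, and in patients such inhibitors can release a differentiation block. Leukemia that returns after such treatment may resemble the original disease or keep a difference from it, and the comparison measures which genes show each.

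Total counts were 5469485 to 8691708 per relapse library and 5944412 to 7650267 per vehicle library. Ribosomal RNA gene models took 63.6% ± 2.27 (SD, n = 4) in relapse and 58.4% ± 6.36 (SD, n = 5) in vehicle (exact permutation test, two-sided, p = 0.167). Other genes held 1984490 to 3124293 counts in relapse and 2436871 to 3358874 in vehicle. Relapse libraries detected fewer genes on average, 17283 against 18952 (exact permutation test, two-sided, p = 0.0714, where 0.0159 is the smallest p that 4 against 5 libraries can give). Relapse replicates 1 and 4 resembled each other more than the rest (r = 0.972 over the genes tested), as did replicates 2 and 3 (r = 0.957), while the other 4 pairs of relapse libraries had r between 0.920 and 0.935. Kit, which encodes the sorted surface protein, was at 18.9 and 19.2 CPM (counts scaled to a common library size) in relapse replicates 1 and 4, at 50.2 and 52.0 CPM in replicates 2 and 3, and at 33.5 to 37.8 CPM in vehicle. Itgam, which encodes CD11b, was at 53.5 and 35.5 CPM in replicates 1 and 4 and at 13.9 and 16.1 CPM in replicates 2 and 3, beside 10.6 to 18.0 CPM in vehicle. Because of this split, each candidate below is given per library.

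A gene was called at an adjusted p under 0.05, where p came from the quasi-likelihood test of edgeR and was adjusted by Benjamini and Hochberg's method over all 11994 genes, and every adjusted p below is of this kind unless another tool is named. Relapse minus vehicle called 22 genes (0.183% of those tested), 12 higher (0.1%) and 10 lower (0.0834%). In all 22 the 4 relapse values lay entirely above or entirely below the 5 vehicle values, as they did in 474 of all genes tested (3.95%), 238 of them higher (1.98%) and 236 lower (1.97%). Set beside this, AG120 minus vehicle, as the mean of both days, called 6148 genes (51.3%; 25.6% higher and 25.7% lower), and relapse minus AG120 called 6481 (54%). These comparisons share vehicle, AG120 or relapse libraries. The plot of fold change against level shows how few genes stood off the zero line in relapse.

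**Figure D1:**
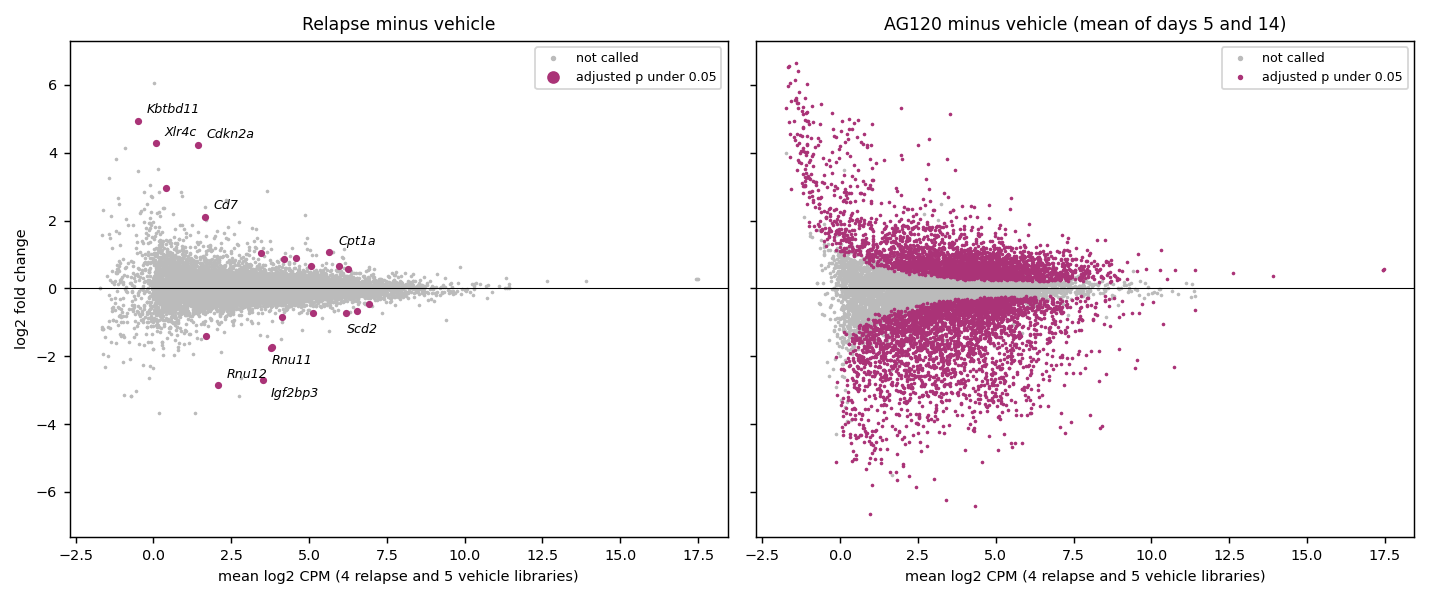
Log2 fold change (vertical axis) against mean log2 CPM over the 4 relapse and 5 vehicle libraries (horizontal axis) for the 11994 genes tested, in relapse minus vehicle (left) and in AG120 minus vehicle (right); coloured points passed an adjusted p of 0.05. In relapse 22 genes are coloured, and with AG120 6148.

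For most genes the change in relapse was bounded within 2-fold. Over all 11994 genes tested, the 95% interval of relapse minus vehicle lay within a 2-fold change in either direction for 9312 (77.6%). That of AG120 minus vehicle did so for 6313 (52.6%). Of the 6707 genes with a mean log2 CPM of at least 3, the numbers were 6463 (96.4%) and 4748 (70.8%). The spread behind these intervals was estimated over all 14 libraries. The number called depended on which libraries entered. Leaving out a vehicle library gave 8 (vehicle day 14 replicate 1 or 2), 14, 10 and 9 calls (vehicle day 5 replicates 1, 2 and 3), and leaving out a relapse library gave 48, 117, 106 and 25 (replicates 1 to 4). Against vehicle day 5 alone 27 genes were called (0.225%), 14 higher (0.117%) and 13 lower (0.108%), and against vehicle day 14 alone 6 (0.05%), 1 higher (0.00834%) and 5 lower (0.0417%). Between the 2 vehicle groups edgeR called 0 genes (574 at an unadjusted p under 0.05), and DESeq2 and limma-voom also called 0.

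The lowest adjusted p was shared by Rnu11, an RNA of the minor spliceosome, and Gm28872, a gene on the opposite strand. Rnu12, another RNA of the minor spliceosome, ranked after Cpt1a. Rnu11 and Rnu12 encode the U11 and U12 small nuclear RNAs, which recognise the 5′ splice site and the branch site of U12-type introns, a small class with its own splicing machinery. Both were lower in all 4 relapse libraries than in any vehicle library, and both were also lower with AG120 as the mean of both days. Their transcripts are shown because these RNAs act by base pairing. They are written as DNA, 5′ to 3′, from the GENCODE M21 transcripts on GRCm38. Positions of genes are on GRCm38 throughout. Rnu11 lies at chr4:132270080-132270213 on the minus strand and Rnu12 at chr15:83149644-83149794 on the plus strand. In Rnu11 the capitals mark bases 1 to 7, AAAAAGG, at the 5′ end that pairs with the splice site, and in Rnu12 they mark bases 18 to 25, GTAAGGAA, which pair with the branch site.
Rnu11: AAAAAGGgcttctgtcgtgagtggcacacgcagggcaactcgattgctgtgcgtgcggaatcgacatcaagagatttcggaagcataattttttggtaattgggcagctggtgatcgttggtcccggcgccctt
Rnu12: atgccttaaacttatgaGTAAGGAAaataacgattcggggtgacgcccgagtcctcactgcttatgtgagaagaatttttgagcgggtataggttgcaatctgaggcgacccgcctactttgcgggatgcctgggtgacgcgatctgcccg
Among the 1383 annotated small nuclear RNA transcripts, AAAAAGG occurred in 0.723% on the transcript strand and 0.289% on the other, and GTAAGGAA in 0.651% and 0.0723%. Neither transcript ends in a run of A, and small nuclear RNAs usually lack the poly(A) tail that 3′ end libraries prime from, so the values give only the reads counted here and not the amount of mature U11 or U12.

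Rnu11 was at 7.93, 5.52, 6.74 and 6.95 CPM in relapse replicates 1 to 4, at 32.3, 19.6 and 30.7 CPM in vehicle day 5 and at 18.9 and 19.2 CPM in vehicle day 14. No relapse library came near the lowest vehicle library, and the 4 relapse values were close together. Relapse minus vehicle was -1.75 ± 0.17 on the log2 scale (SE; adjusted p = 5.44e-05), a mean 3.56-fold lower CPM. In mice on AG120 the 5 libraries read 5.40 to 9.29 CPM, AG120 minus vehicle was -1.67 (adjusted p = 3.1e-07), and relapse minus AG120 was -0.08 ± 0.19 (adjusted p = 0.741). Relapse and AG120 values thus overlapped for Rnu11, below all vehicle values. The opposite-strand gene Gm28872, a long noncoding RNA at chr4:132270056-132270213, covers all 134 bases of Rnu11 and was called with it (log2 fold change -1.73). The ratio of their counts was 0.941 to 1.00 in the 14 libraries, so reads from the 2 genes cannot be told apart.

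Rnu12 was at 2.08, 0.356, 1.51 and 1.08 CPM in relapse replicates 1 to 4, at 15.4, 10.3 and 15.5 CPM in vehicle day 5 and at 4.83 and 7.46 CPM in vehicle day 14. The relapse values were all low, the 2 day 14 vehicle libraries were intermediate, and relapse did not overlap vehicle. Relapse minus vehicle was -2.86 ± 0.33 (adjusted p = 0.000392), from 33 counts in relapse and 429 in vehicle. The AG120 libraries read 2.80 to 5.54 CPM, above every relapse library and overlapping vehicle day 14. AG120 day 5 minus vehicle day 5 was -1.77 (adjusted p = 0.000402), AG120 day 14 minus vehicle day 14 was -0.80 and not called (adjusted p = 0.186), and relapse minus AG120 was -1.58 (adjusted p = 0.00167). Rnu11, Gm28872 and Rnu12 were called in all 20 alternative fits, with adjusted p of at most 0.00361, 0.00361 and 0.0164.

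Other small nuclear RNAs were not called, but many read low. Of the 19 small nuclear RNA genes tested, Rnu11 and Rnu12 were called, 15 had a lower estimate in relapse, and the median log2 fold change was -1.03 (median of AG120 minus vehicle -0.89), beside 0.02 for all genes. Rnu7, the U7 RNA of histone pre-mRNA processing, read 0.849 CPM in relapse and 2.03 CPM in vehicle on average (log2 fold change -1.22, adjusted p = 0.254). The 55 small nucleolar RNA genes tested had a median of 0.06 with none called. Many small nuclear RNA genes have near-identical copies, so their counts are uncertain. Ribosomal RNA took 60.6% to 66.1% of counts in relapse and 50.9% to 68.1% in vehicle, and the part of RNA recovery in these differences was not tested. The protein partners of the minor spliceosome, a list chosen after the values were seen, showed no such shift. Of its 14 genes 12 were tested and none was called, with log2 fold changes from -0.26 (Snrnp48) to 0.28 (Zrsr1) and a median of -0.04.

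Single genes of fatty acid oxidation and of lipid synthesis were called, Cpt1a higher and Scd2 lower. Cpt1a (chr19:3322334-3385733, plus strand), which encodes the carnitine palmitoyltransferase that commits long-chain fatty acids to mitochondrial oxidation, was higher in relapse. Its levels were 76.1, 67.7, 67.3 and 89.4 CPM in relapse replicates 1 to 4, 35.2, 36.6 and 33.98 CPM in vehicle day 5 and 34.4 and 39.0 CPM in vehicle day 14. Every relapse library stood well above every vehicle library, and the vehicle groups were alike. Relapse minus vehicle was 1.06 ± 0.11 (adjusted p = 0.000142), a 2.1-fold higher mean CPM. The AG120 libraries read 24.7 to 35.0 CPM, so AG120 minus vehicle was -0.22 (adjusted p = 0.11) and relapse minus AG120 1.28 (adjusted p = 9.84e-08). Cpt1a was called in all 20 alternative fits (adjusted p at most 0.00477). It was the 1 called member of 20 tested fatty acid oxidation genes, whose median log2 fold change was 0.08. Acadl, a long-chain acyl-CoA dehydrogenase, was the other member whose groups did not overlap, at 42.1 to 52.1 CPM in relapse and 32.3 to 38.5 CPM in vehicle, and it was not called (0.39 ± 0.10, adjusted p = 0.114). Cpt2, the partner of Cpt1a on the inner membrane, read 0.08 ± 0.16 (adjusted p = 0.879).

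Scd2 (chr19:44293674-44306864, plus strand), a stearoyl-CoA desaturase that makes monounsaturated fatty acids, was lower in relapse. It was at 67.4, 76.4, 83.2 and 66.3 CPM in relapse replicates 1 to 4, at 96.1, 109 and 115 CPM in vehicle day 5 and at 131 and 120.9 CPM in vehicle day 14. The groups did not overlap, and relapse minus vehicle was -0.66 ± 0.10 (adjusted p = 0.00896). With AG120 it read 108 to 154 CPM (AG120 minus vehicle 0.23, adjusted p = 0.0582), and relapse minus AG120 was -0.89 (adjusted p = 2.26e-06). The call was lost without vehicle day 14 replicate 1 (adjusted p = 0.0937). Among the 33 tested genes of cholesterol and lipid synthesis Scd2 was the 1 call, 7 had a positive estimate, and the median was -0.16. The sterol enzyme Sqle (8.02 to 11.9 CPM in relapse, 12.6 to 15.8 in vehicle, adjusted p = 0.127) also had separate groups without a call.

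Igf2bp3 (chr6:49085223-49214957, minus strand), an RNA-binding protein of fetal tissue that is often expressed in leukemia, was lower in relapse. It was at 1.70, 8.02, 6.19 and 1.56 CPM in relapse replicates 1 to 4, at 27.6, 25.4 and 29.4 CPM in vehicle day 5 and at 27.5 and 30.7 CPM in vehicle day 14. All relapse libraries were far below vehicle, and replicates 1 and 4 were lower than replicates 2 and 3. Relapse minus vehicle was -2.71 ± 0.34 (adjusted p = 0.00492), a 6.44-fold lower mean. On AG120 it was at 20.3 to 24.8 CPM at day 5 and at 8.81 and 9.85 CPM at day 14. AG120 minus vehicle was -0.98 (adjusted p = 0.012) and relapse minus AG120 -1.73 (adjusted p = 0.00138).

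Malsu1 (chr6:49073795-49086751, plus strand), an assembly factor of the mitochondrial ribosome, lies next to Igf2bp3 on the other strand, and the annotations of the pair overlap by 1529 bases. It was at 12.5, 9.44, 13.3 and 14.4 CPM in relapse replicates 1 to 4, at 22.3 to 23.4 CPM in vehicle day 5 and at 22.6 and 21.6 CPM in vehicle day 14. Relapse was lower in every library, by -0.84 ± 0.12 (adjusted p = 0.00499). The ratio of Igf2bp3 to Malsu1 counts was 0.108 to 0.849 in relapse and 1.139 to 1.42 in vehicle, so the pair did not keep a fixed ratio. On AG120 Malsu1 read 23.5 to 25.9 CPM at day 5 and 16.1 and 16.2 CPM at day 14 (AG120 minus vehicle -0.15, adjusted p = 0.289). The overlap lies at the 3′ ends of both genes, where these libraries are read. Rnu11 and Gm28872, which also lie on opposite strands, had count ratios of 0.941 to 1.00. Whether reads were assigned by strand is not given in the sources used here. How far Igf2bp3 and Malsu1 share reads was not tested, so Malsu1 cannot be treated as a separate finding. Igf2bp3 and Malsu1 were called in 19 of 20 alternative fits. The exception was the fit of the 9 compared libraries alone (adjusted p = 0.0755 and 0.0572).

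Inhibitors of cyclin-dependent kinases were the 2 called members of the 18 tested genes on cell cycle inhibitors and D cyclins, both higher in relapse. Of all genes tested 0.1% were called higher. The list as a whole did not shift, with 9 of 18 positive estimates and a median of 0.00. Cdkn2a (chr4:89274471-89294653, minus strand), whose transcripts encode the tumor suppressors Ink4a and Arf, was at 11.7, 18.7, 1.65 and 21.3 CPM in relapse replicates 1 to 4. It was at 0.997, 0.442 and 0.330 CPM in vehicle day 5 and at 1.17 and 0.553 CPM in vehicle day 14. In 3 relapse libraries the gene stood far above every vehicle library, and in replicate 3 it was just above the highest vehicle library. Relapse minus vehicle was 4.23 ± 0.65 (adjusted p = 0.0245), from 357 counts in relapse and 26 in vehicle. Without relapse replicate 3 the log2 fold change was 4.61 (adjusted p = 6.16e-07), limma-voom gave an adjusted p of 0.205, and without any single vehicle library the call was lost (adjusted p up to 0.242). Counts near the 3′ end do not separate the Ink4a and Arf transcripts, which share their last exons. On AG120 it read 0 to 0.895 CPM.

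Cdkn1a (chr17:29090976-29100727, plus strand), the p53 target that encodes the Cip1 inhibitor, was at 21.3, 23.2, 27.0 and 31.9 CPM in relapse replicates 1 to 4, at 14.8, 10.3 and 15.0 CPM in vehicle day 5 and at 12.5 and 17.6 CPM in vehicle day 14. Relapse lay above vehicle in each library, with a gap that was small beside the spread in vehicle (0.88 ± 0.16, adjusted p = 0.033). In AG120 it read 2.39 to 5.33 CPM, below every vehicle library (AG120 minus vehicle -2.07, adjusted p = 3.39e-07). The call was lost without relapse replicate 4 and without any 1 of the vehicle libraries (adjusted p up to 0.193). Cdkn1a was the 1 called gene of 27 tested p53 target and apoptosis genes, whose median was 0.10, and Mdm2, another p53 target, read 0.20 ± 0.11 (adjusted p = 0.53). Cdkn1b read 0.16 ± 0.12 (adjusted p = 0.664), and Cdkn2c, which encodes another inhibitor of the Ink4 family, 0.00 ± 0.15 (adjusted p = 0.996).

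Genes of DNA replication read lower, with 1 call. Mcm6 (chr1:128331590-128359664, minus strand), a subunit of the replicative helicase, was at 102, 110, 93.4 and 101 CPM in relapse replicates 1 to 4, at 137, 145 and 143 CPM in vehicle day 5 and at 136 and 143 CPM in vehicle day 14. The groups were tight and did not overlap, and relapse minus vehicle was -0.47 ± 0.09 (adjusted p = 0.0435). Of 40 tested genes of G1/S and DNA replication, Mcm6 was called and 5 had a positive estimate, with a median of -0.22. Relapse did not overlap vehicle in 6 of them, all lower (in 1.97% of all genes tested relapse was lower without overlap), among them the helicase subunits Mcm3, Mcm4, Mcm5 and Mcm6. Mcm3 read 114 to 169 CPM in relapse and 177 to 186 CPM in vehicle, and Mcm5 38.4 to 54.6 CPM and 56.0 to 66.5 CPM. With AG120 the same list had 26 members higher and 2 lower (25.6% and 25.7% of all genes tested), with a median of 0.43. The 40 tested genes of G2/M and mitosis had no call in relapse and a median of 0.07.

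Ung (chr5:114130386-114139323, plus strand), a uracil-DNA glycosylase of base excision repair, was at 62.2, 51.0, 51.0 and 52.98 CPM in relapse replicates 1 to 4, at 100, 95.7 and 94.0 CPM in vehicle day 5 and at 72.2 and 96.1 CPM in vehicle day 14. Vehicle day 14 replicate 1 was the library nearest to relapse. Relapse minus vehicle was -0.73 ± 0.12 (adjusted p = 0.0148), and AG120 minus vehicle -0.30 (adjusted p = 0.0366). Ung lost its call without vehicle day 14 replicate 2 or vehicle day 5 replicate 2 or 3 (adjusted p up to 0.172). Mcm6 lost it without relapse replicate 4 or any 1 of the vehicle libraries (up to 0.265).

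Kdm7a (chr6:39136623-39206789, minus strand) was the 1 called member of 30 tested dioxygenases that use 2-oxoglutarate, the class that 2-hydroxyglutarate inhibits. It encodes a histone demethylase. Levels were 12.1, 17.1, 23.8 and 12.2 CPM in relapse replicates 1 to 4, 7.26, 8.07 and 8.47 CPM in vehicle day 5 and 8.64 and 7.05 CPM in vehicle day 14. All relapse libraries were higher, replicates 2 and 3 the most (1.05 ± 0.19, adjusted p = 0.0303). On AG120 it was at 5.54 to 7.47 CPM at day 5 and at 24.5 and 20.2 CPM at day 14, and AG120 minus vehicle was 0.61 (adjusted p = 0.0139). The median of the class in relapse was 0.04, and Tet2, which oxidises methylcytosine, read 0.16 ± 0.13 (adjusted p = 0.67). The 29 tested genes of isocitrate and 2-oxoglutarate metabolism had no call and a median of -0.03.

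Arap2 (chr5:62602445-62766159, minus strand), a GTPase-activating protein for Arf, was at 29.7, 46.1, 28.8 and 29.6 CPM in relapse replicates 1 to 4, at 19.2, 20.7 and 17.4 CPM in vehicle day 5 and at 17.9 and 16.4 CPM in vehicle day 14. Replicate 2 stood apart from the other relapse libraries, which were themselves above vehicle (0.89 ± 0.15, adjusted p = 0.0211). The AG120 libraries were lowest, at 2.39 to 11.3 CPM (AG120 minus vehicle -1.79, adjusted p = 6.94e-07). St3gal2 (chr8:110919922-110972480, plus strand), a sialyltransferase, was at 34.2, 48.1, 39.6 and 46.3 CPM in relapse, at 31.0, 30.9 and 27.5 CPM in vehicle day 5 and at 21.8 and 25.7 CPM in vehicle day 14. Relapse replicate 1 was little above the highest vehicle library (0.66 ± 0.12, adjusted p = 0.0291). In AG120 day 5 St3gal2 read 6.71 to 8.90 CPM and in day 14 21.8 and 20.4 CPM (AG120 minus vehicle -1.07, adjusted p = 2.48e-06). The calls of Kdm7a and Arap2 were lost without any 1 of the vehicle libraries (adjusted p up to 0.262 and 0.190), as was that of St3gal2, which was also lost without relapse replicate 4 (up to 0.193).

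Abca2 (chr2:25428703-25448540, plus strand), a lipid transporter of the ABC family, was lower, at 20.6, 30.1, 32.9 and 20.02 CPM in relapse replicates 1 to 4, 49.3, 44.6 and 49.9 CPM in vehicle day 5 and 35.7 and 41.5 CPM in vehicle day 14. Relapse replicates 1 and 4 were again the lowest, and replicates 2 and 3 approached vehicle day 14 (-0.73 ± 0.14, adjusted p = 0.0476). AG120 libraries read 8.06 to 27.1 CPM (AG120 minus vehicle -1.44, adjusted p = 5.22e-07). Gdf15 (chr8:70629393-70632456, minus strand), a stress-induced cytokine of the TGF-beta family, was at 1.70, 1.07, 2.20 and 1.92 CPM in relapse, at 2.56, 4.75 and 4.29 CPM in vehicle day 5 and at 6.30 and 4.98 CPM in vehicle day 14. Vehicle day 5 replicate 1 lay just above relapse (-1.41 ± 0.27, adjusted p = 0.0476). Both calls were lost without relapse replicate 1 or 4. Abca2 also lost its call without any 1 of the vehicle libraries (adjusted p up to 0.293), and Gdf15 without 4 of them, the exception being vehicle day 5 replicate 1 (up to 0.193).

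Sox15 and Mpdu1 were both higher and cannot be treated as separate findings. Sox15 (chr11:69655314-69656727, plus strand) encodes a transcription factor of the Sox family and Mpdu1 (chr11:69656697-69662642, minus strand) a protein needed to use dolichol-linked mannose in glycosylation. They lie end to end on chromosome 11 and overlap by 31 bases at their 3′ ends, where these libraries are read. Sox15 was at 74.8, 83.9, 85.7 and 74.4 CPM in relapse replicates 1 to 4, at 49.8, 45.9 and 53.5 CPM in vehicle day 5 and at 50.2 and 52.8 CPM in vehicle day 14 (0.66 ± 0.10, adjusted p = 0.00784). Mpdu1 was at 88.8 to 101 CPM in relapse and 59.5 to 66.2 CPM in vehicle (0.58 ± 0.10, adjusted p = 0.0148). Neither gene overlapped between the groups. The ratio of Sox15 to Mpdu1 counts was 0.767 to 0.859 in all 14 libraries, so which of the pair changed cannot be told apart. With AG120 neither was called (AG120 minus vehicle 0.00 and -0.01, adjusted p = 0.978 and 0.912). Without vehicle day 14 replicate 1 or 2 the Sox15 call was lost (adjusted p up to 0.105), and that of Mpdu1 also without vehicle day 5 replicate 2 or 3 (up to 0.132).

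The remaining higher genes had few counts. Cd7 (chr11:121036747-121039418, minus strand), a surface protein of T and NK cells that also occurs on some myeloid leukemias, was at 6.99, 4.45, 8.39 and 5.75 CPM in relapse replicates 1 to 4, at 1.99, 0.995 and 1.21 CPM in vehicle day 5 and at 1.90 and 1.24 CPM in vehicle day 14. All 4 relapse libraries were higher (2.11 ± 0.30, adjusted p = 0.00492), from 171 counts against 56. The defining T cell genes Cd3d, Cd3e, Cd4 and Cd8a summed to 0 to 0.550 CPM in relapse and 0.285 to 0.440 CPM in vehicle, and Cd3e was at 0 in all 9 libraries. The NK cell genes Ncr1 and Klrb1c summed to 0 to 1.38 CPM in relapse and 0 to 0.293 CPM in vehicle. They were highest in relapse replicate 3, which also had the highest Cd7, and both were at 0 in relapse replicates 2 and 4, where Cd7 was also above vehicle. Of the 10 tested genes on the T and NK cell list, Cd7 was the 1 call and 6 had a positive estimate. Their log2 fold changes ran from -1.01 to 2.38, with a median of 0.18. In edgeR 4 of them had an unadjusted p under 0.05, beside 1389 of all 11994 genes. The part of NK cells in the Cd7 difference was not tested. The call held in 19 of 20 alternative fits and was lost without vehicle day 14 replicate 2 (adjusted p = 0.0687).

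Xlr4c (chrX:73233688-73243130, minus strand), of the X-linked lymphocyte-regulated family, was at 1.32, 1.07, 4.95 and 6.95 CPM in relapse replicates 1 to 4 and at 0 to 0.553 CPM in vehicle, from 107 counts against 7 (adjusted p = 0.0127). It was higher in replicates 3 and 4 than in 1 and 2, it has near-identical family copies, and it lies inside the annotated span of Xlr5a, so its counts are uncertain. Ckm (chr7:19404776-19422841, plus strand), the muscle creatine kinase, was at 1.70, 5.17, 1.79 and 2.76 CPM in relapse and at 0.138 to 0.570 CPM in vehicle, from 74 counts against 17 (2.96 ± 0.53, adjusted p = 0.0245). Kbtbd11 (chr8:15011025-15033333, plus strand), which encodes a Kelch and BTB domain protein, had 42 counts in relapse and 3 in vehicle, a rate ratio of 20.7 with a 95% counting interval of 6.62 to 104 (adjusted p = 0.0419). It was at 2.46, 0.356, 0.963 and 2.40 CPM in relapse, and 2 vehicle libraries had none. Ckm and Kbtbd11 lost the call without any 1 of the vehicle libraries, and Xlr4c without either vehicle day 14 library or vehicle day 5 replicate 3 (adjusted p up to 0.262, 0.262 and 0.132). These 3 genes, Gdf15 and Gm28872 were outside the rule for named genes and were chosen after their values were seen.

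**Figure D2:**
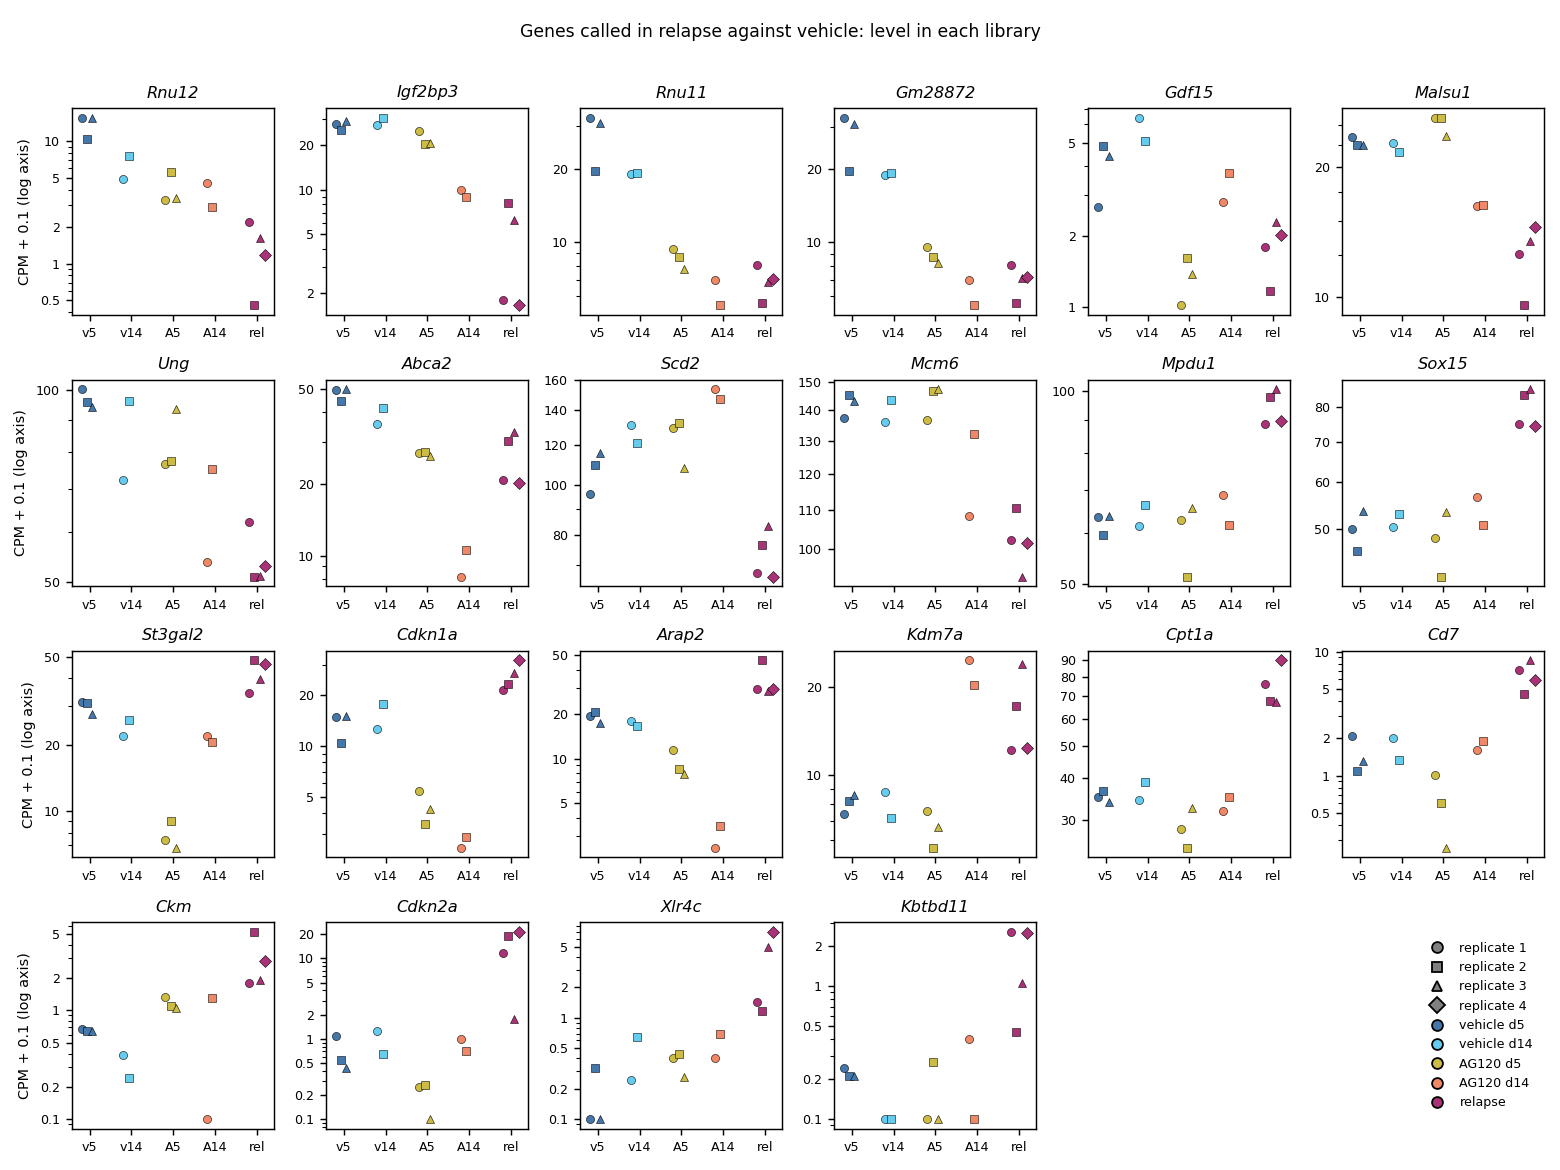
CPM plus 0.1 (vertical log axis) of each of the 22 called genes in every library, ordered by log2 fold change; columns are vehicle day 5 (v5), vehicle day 14 (v14), AG120 day 5 (A5), AG120 day 14 (A14) and relapse (rel), and marker shapes are replicates. Relapse never overlaps vehicle, Cdkn2a has 1 relapse library near vehicle, and Rnu11 reads as low in AG120 as in relapse.

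None of the genes tied to the model or the sort was called in relapse. Idh1 was at 57.8, 21.0, 26.6 and 49.3 CPM in relapse replicates 1 to 4 and at 29.8 to 43.7 CPM in vehicle, with relapse values on both sides of vehicle (0.08 ± 0.24, adjusted p = 0.938). The counts do not separate mutant from normal Idh1 transcripts. Idh2, the mitochondrial paralog, read -0.07 ± 0.12 (adjusted p = 0.852), the DNA methyltransferase Dnmt3a -0.02 ± 0.09 (0.962) and the GTPase Nras -0.02 ± 0.11 (0.972). Kit read -0.03 ± 0.29 (0.983) and Itgam 1.04 ± 0.35 (0.275). With AG120, 5 of these 6 genes were lower (25.7% of all genes tested), with a median of -1.30.

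Across the 43 gene lists, which cover 968 tested genes, 7 genes were called in relapse and 36 lists had no called member. Over all genes tested 0.183% were called, so 0 calls in a list lies near that share. AG120 minus vehicle called 25.6% of all genes tested higher and 25.7% lower. The medians of those 36 lists ran from -0.42 to 0.89, beside 0.02 for all genes. The plot of list medians sets relapse beside AG120 for each list. Erythroid genes had 0 of 38 called and a median of -0.03, where AG120 raised 31 with a median of 2.76. Stem and progenitor genes had 0 of 30 called and a median of 0.00, where AG120 lowered 16 and raised 6 (median -1.19). Among them Cd34, a progenitor surface marker, was at 135 to 186 CPM in relapse and 126 to 147 CPM in vehicle (0.21 ± 0.12, adjusted p = 0.516), beside -4.27 with AG120. Adgrg1, of the same list, was at 317, 1253, 929 and 400 CPM in relapse replicates 1 to 4 and at 711 to 924 CPM in vehicle. Sox4 was at 169, 608, 625 and 207 CPM, beside 296 to 457 CPM in vehicle. For Adgrg1 and Sox4 relapse values thus lay on both sides of vehicle, which the list median does not show. Primary granule genes had 0 of 19 called and a median of 0.23 (AG120 -2.21). Of these, Mpo was at 1661, 403, 376 and 967 CPM in relapse replicates 1 to 4 and at 525 to 1007 CPM in vehicle. Calr was at 1136, 561, 560 and 973 CPM, beside 688 to 835 CPM in vehicle. Relapse values of Mpo and Calr thus also lay on both sides of vehicle. MYC targets and ribosome biogenesis genes had 0 of 40 called and a median of -0.11, where AG120 raised 38 (median 0.88).

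**Figure D3:**
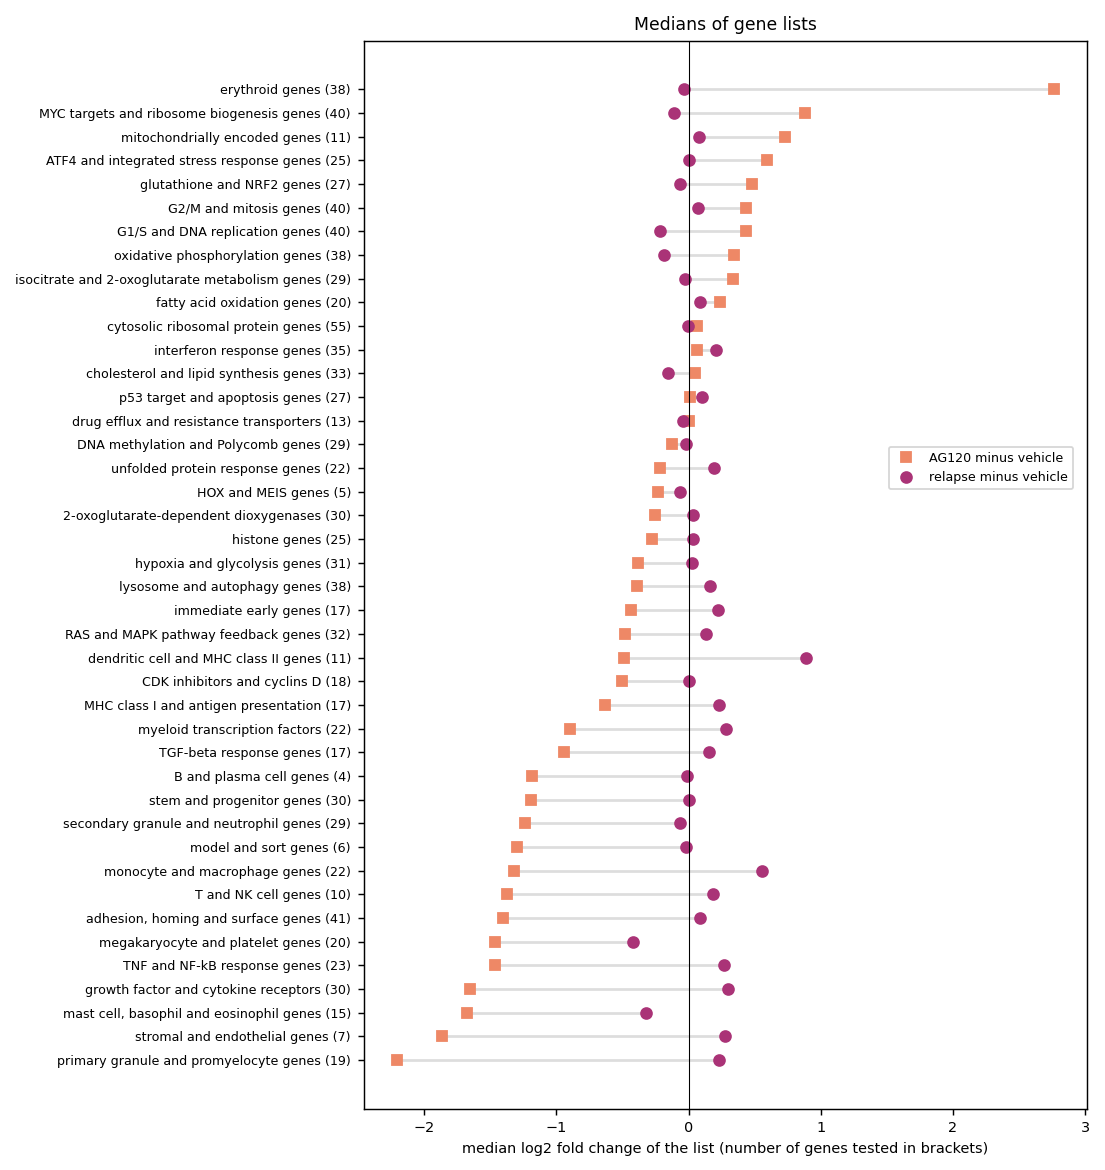
Median log2 fold change of each gene list (horizontal axis) in relapse minus vehicle (circles) and AG120 minus vehicle, mean of both days (squares), with the number of tested genes in brackets. Both contrasts use the same vehicle libraries. Erythroid genes are at 2.76 with AG120 and -0.03 in relapse.

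Some lists read off vehicle in relapse without a call. Over all genes tested, 6334 of 11994 had a positive estimate. Of the 11 tested genes of dendritic cells and MHC class II, 10 had positive estimates, with a median of 0.89 (AG120 -0.49). H2-DMb1, a chaperone of MHC class II loading, was the 1 member whose groups did not overlap. It was at 5.10 to 13.1 CPM in relapse and 1.99 to 3.70 CPM in vehicle (1.34 ± 0.31, adjusted p = 0.0909). Tcf4, of the same list, was at 33.6, 78.4, 62.5 and 30.9 CPM in relapse replicates 1 to 4 and at 36.5 to 41.9 CPM in vehicle. Bst2 was at 14.4, 3.39, 6.60 and 8.03 CPM, beside 5.70 to 9.08 CPM in vehicle. For Tcf4 and Bst2 relapse values thus lay on both sides of vehicle. Monocyte and macrophage genes had 18 of 22 positive and a median of 0.55 (AG120 -1.32), but 0 members whose groups did not overlap. Among them S100a4 was at 152, 46.9, 77.2 and 183 CPM in relapse replicates 1 to 4 and at 42.0 to 59.0 CPM in vehicle. S100a6 was at 135, 57.9, 35.5 and 186 CPM, beside 47.0 to 64.5 CPM in vehicle. Both were highest in relapse replicates 1 and 4. The interleukin receptor Il1r1 was at 30.04, 16.7, 12.5 and 35.4 CPM in relapse and 7.12 to 11.9 CPM in vehicle (1.39 ± 0.27, adjusted p = 0.0587), where AG120 minus vehicle was -3.73. Mast cell, basophil and eosinophil genes had 1 of 15 positive (median -0.32, AG120 -1.68) and megakaryocyte and platelet genes 3 of 20 (median -0.42, AG120 -1.46). The platelet chemokine Pf4 was at 2.08, 18.9, 21.3 and 2.88 CPM in relapse and 30.1 to 38.4 CPM in vehicle, and Gata1, a factor of erythroid and megakaryocyte cells, at 0, 2.32, 5.64 and 1.80 CPM beside 8.25 to 10.1 CPM (adjusted p = 0.329 and 0.117). Relapse replicates 1 and 4 were again the lowest for Pf4.

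Markers of other cell types varied among the relapse libraries. Megakaryocyte markers (Pf4, Ppbp and Itga2b) summed to 77.8 to 267 CPM in relapse and 216 to 303 CPM in vehicle, and mast and basophil markers (Cpa3, Mcpt8, Tpsb2 and Fcer1a) to 25.7 to 60.9 CPM and 56.1 to 72.3 CPM. The 6 neutrophil markers summed to 243 to 1254 CPM in relapse and 550 to 1150 CPM in vehicle, the 4 monocyte markers to 20.9 to 38.7 CPM and 22.8 to 30.3 CPM, and the 4 erythroid markers to 1.32 to 132 CPM and 6.98 to 39.5 CPM. The 3 dendritic markers (Siglech, Xcr1 and H2-Aa) summed to 1.43 to 5.10 CPM in relapse and 0.570 to 2.07 CPM in vehicle. B cell and stromal markers summed to at most 0.884 CPM in any of the 9 libraries. The part of cell mixture in the called genes was not tested.

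To ask whether changes seen on AG120 remained, comparisons with no library in common were set side by side. Of 4730 genes called in AG120 day 5 minus vehicle day 5 (39.4%) and 6 called in relapse minus vehicle day 14, 3 were called in both (0.0634% of the first list and 50% of the second), all lower in both: Rnu11, Gm28872 and Rnu12. The 2410 genes higher on AG120 at day 5 (20.1%) had a median of 0.81 there and of -0.11 in relapse, and the 2320 lower genes (19.3%) -1.26 there and 0.14 in relapse. Of 4159 genes called in AG120 day 14 minus vehicle day 14 (34.7%) and 27 called in relapse minus vehicle day 5, 11 were called in both (0.264% and 40.7%). Of these 8 had the same direction: Abca2, Gm28872, Igf2bp3, Rnu11, the linker histone genes Hist1h1c and Hist1h1d, Klf3 and mt-Ty. The other 3, Cdkn1a, Pim1 and Rpia, had opposite directions. The 2010 genes higher at day 14 (16.8%) had a median of -0.01 in relapse and the 2149 lower genes (17.9%) one of 0.07.

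How each call fared across the alternative fits is shown in the grid of adjusted p. Cpt1a, Rnu11, Gm28872 and Rnu12 were called in all 20, and Cd7, Igf2bp3 and Malsu1 in 19. Sox15 was called in 18 and Scd2 in 17. Fewest calls were kept by Abca2, in 8 of 20, Gdf15, in 9 of 20, and Kbtbd11, in 8 of the 16 that tested it. DESeq2 called all 22 among 120 genes, and limma-voom called 16 of the 22, without Kdm7a, Cdkn2a, Xlr4c, Ckm, Kbtbd11 and Gdf15. The fit of the 9 compared libraries alone kept 6 of the 22 (Cpt1a, Rnu11, Gm28872, Rnu12, Cd7 and Sox15) and lost 16, among them Scd2 (adjusted p = 0.0617), Ung (0.0572), Mcm6 (0.136) and Cdkn1a (0.135). The replicate block kept 11 of the 22.

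**Figure D4:**
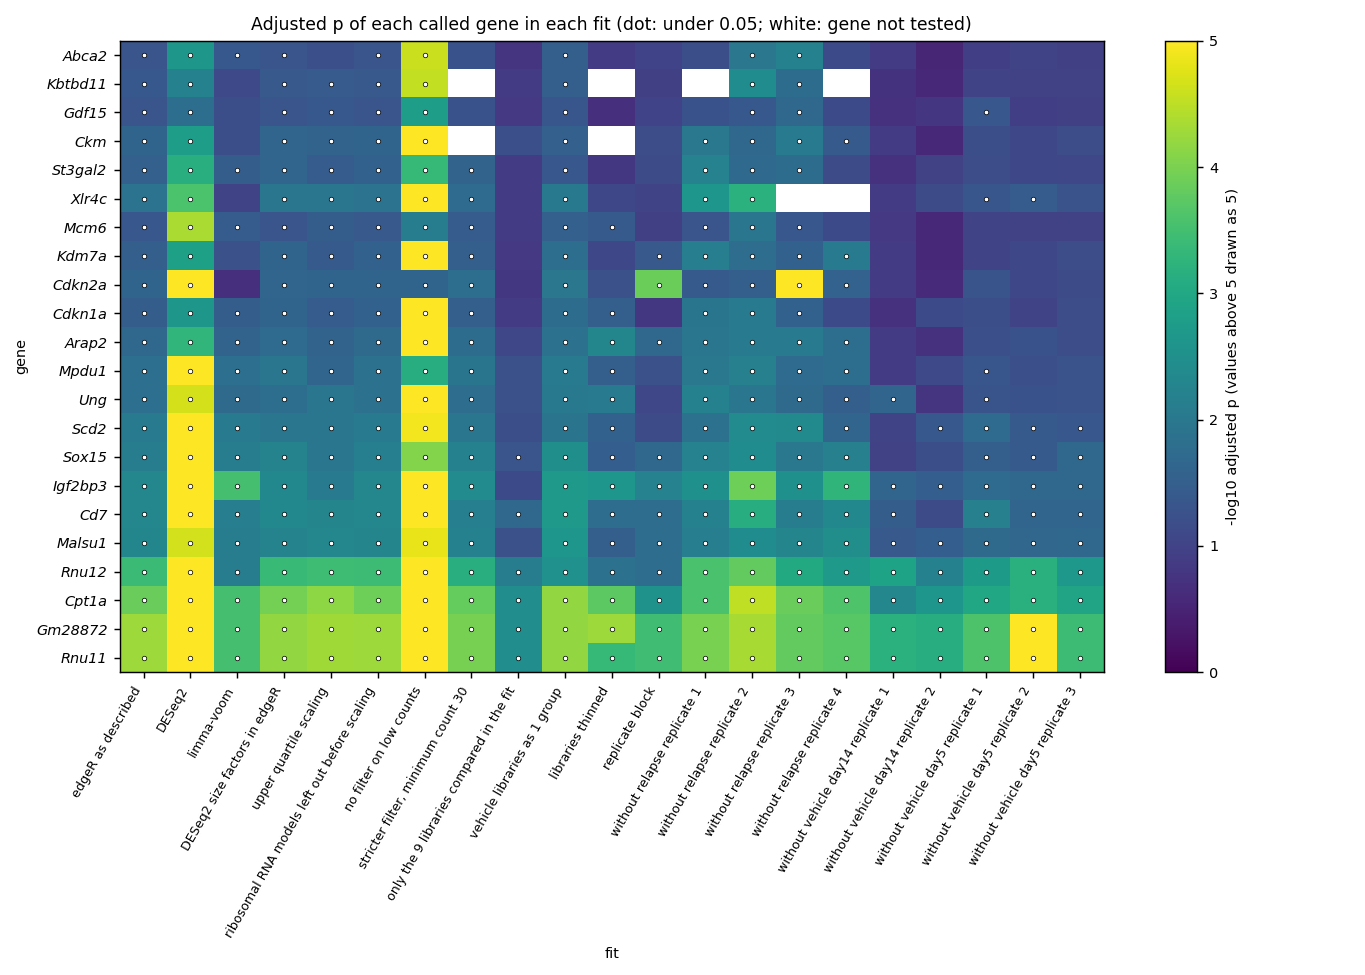
Adjusted p of each of the 22 called genes (rows) in each fit (columns), coloured by -log10 of the adjusted p, with a dot where it was under 0.05 and white where the gene was not tested. The 4 lowest rows, Rnu12, Cpt1a, Gm28872 and Rnu11, carry a dot in every fit.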

How the data were processed

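RNA of sorted cKit-positive, CD11b-negative I1DN cells was read by QuantSeq 3′ sequencing in 14 libraries, per the labels' protocols. What the authors deposited is 1 table with the raw count of each gene in each library. The submitters' processing notes name bcl2fastq 2.17.1.14, cutadapt 1.14, HISAT2 2.1.0, featureCounts of Subread 1.6.3 and mm10. Strand use, multi-mapped reads and molecular identifiers: not given in the sources used here. A 3′ count does not scale with transcript length. Gene symbols, positions and transcript sequences came from GENCODE M21 (GRCm38), which named 52489 of 52636 genes.

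Genes passed filterByExpr by group at a minimum count of 10, libraries were scaled by TMM and the model was fitted with edgeR 4.0.16 (quasi-likelihood, robust, R 4.3.3) over all 14 libraries with 1 coefficient per group and 9 residual degrees of freedom. Relapse was compared with the mean of the 2 vehicle coefficients, and a gene was called at a Benjamini-Hochberg adjusted p under 0.05. CPM use TMM-scaled library sizes, and intervals are at 95%. The 5 vehicle libraries of 2 times were pooled by that mean. Alternatives were DESeq2 1.42.0, limma-voom (limma 3.58.1), other scalings and filters, ribosomal models left out, the 9 libraries alone, vehicle as 1 group, thinned libraries, a replicate block and each library left out. The pipeline was tested on simulated counts. No 2 libraries of a group agreed within sampling noise (lowest chi-square per degree of freedom 1.94 over 14 pairs). Each library is 1 sorted mouse per the labels. The spread behind the p-values was estimated over all 14 libraries, those on AG120 included. The model treats the 4 relapse mice as independent, although their libraries resembled each other in pairs.

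Members and gene lists were chosen with earlier results of these data known. Named genes were 6 model and sort genes, up to 10 per direction by fold change among called genes without overlap at a mean log2 CPM of at least 3, the 6 smallest adjusted p, called genes that AG120 also changed (up to 6 per direction), and per list up to 3 called members per direction or the 2 of highest CPM, without unnamed models. Further genes named for groups that did not overlap, or as pathway partners, were chosen after their values were seen. Some genes are not reported here.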

Additional observations from a re-analysis of the deposited data

Results flagged for a closer look

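In 3 of 95 genes tested for outliers, 1 relapse library lay far from the other 3, and chance alone gives about 1 in 20 such cases. Arap2, higher in relapse, was at 46.1 CPM in relapse replicate 2 and at 28.8 to 29.7 CPM in the other relapse libraries. Atf4, a transcription factor of the integrated stress response, was at 75.4 CPM in relapse replicate 2, where the nearest other library had 148 CPM. Tkt, the transketolase of the pentose phosphate pathway, was at 365 CPM in relapse replicate 1, where the nearest other library had 307 CPM.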

How the results depend on the processing

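Relapse minus vehicle called 22 genes, and 120 with DESeq2 (79 higher, 41 lower), 267 without a filter on low counts, 46 with vehicle as 1 group and 7 with the 9 libraries alone. The cause was not tested. Calls whose groups did not overlap numbered 96, 114, 46 and 7 in these fits and 13 with the replicate block. Against vehicle day 5 (27 calls) the counts were 120 with DESeq2, 16 with limma-voom, 298 unfiltered and 4 with the 9 libraries. Against vehicle day 14 (6 calls) they were 25 with DESeq2, 89 unfiltered and 0 with the 9 libraries. The vehicle groups differed in 33 genes unfiltered. Genes in common with AG120 day 5 and day 14 numbered 13 and 54 with DESeq2 and 62 and 149 unfiltered, and 6 at day 14 with limma-voom. Leaving out 1 library each gave 8 to 117 calls in relapse minus vehicle, 8 to 105 without overlap, 4 to 138 against day 5, 0 to 36 against day 14 and 0 to 0 between vehicle groups. Without a day 14 library that arm holds 1 mouse, assumed to vary like the other groups. The replicate block gave 16 calls, 11 of them among the 22. Deviations from the group mean in same-numbered relapse and vehicle libraries had correlations of 0.109, -0.184, 0.063, -0.057 and -0.207. In vehicle day 14 the deviations of the 2 libraries mirror each other, and relapse deviations follow the split between its pairs. These values therefore cannot decide whether the numbers pair the libraries. Over 95 genes and all fits 1770 results kept their side of the threshold, 112 lost and 8 gained a call. Direction was compared only where a gene was called in the main fit or in the alternative, and there 0 reversed. Changes of sign in uncalled genes were not counted. Of 860 list medians 34 moved beyond the spread. No scaling moved the median of all genes by more than 0.032 on the log2 scale. Genes below 1 CPM rest on few counts, and the depth limits what can be called there.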
